A study of Mus musculus with 9 samples.

Results

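Neutrophils carry ready-made proteins in granules, and the lung RNA of 9 mice was examined here for 10 genes that encode such proteins, grouped by granule class. The primary (azurophil) granule genes were Elane, Mpo, Prtn3 and Ctsg, the secondary (specific) granule genes were Ltf, Camp, Ngp and Lcn2, and the tertiary (gelatinase) granule genes were Mmp8 and Mmp9. They are listed by name and class and make up 10 of the 27203 gene IDs of the expression table. All 10 were found, as protein-coding genes under 1 Ensembl ID each. Of these, 7 had a mean of at least 0.1 FPKM (the level of a transcript as its sequenced fragments, scaled to exon length and library total) over the 9 libraries and could be tested, while Elane, Mpo and Ctsg lay under that filter.

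The mice were male C57BL/6 animals, 6 to 8 weeks old, with 3 per group and 1 lung library per mouse. Control mice had been intubated and not ventilated. In the ventilator-induced lung injury (VILI) groups, a high tidal volume (20 ml/kg) was given by ventilator over 4 hours under ketamine, xylazine and pancuronium. These mice were killed at once (VILI 0 h) or after 6 hours of recovery (VILI 6 h). No group was ventilated at a low tidal volume, so the effect of stretch and that of the ventilator procedure cannot be told apart. The comparisons ask which granule genes differ right after high-stretch ventilation, which differ 6 hours later, and which differ between these times.

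Granules form in sequence while a neutrophil matures in the bone marrow, and each class holds the proteins whose genes are active at that stage. Primary granule proteins (serine proteases and myeloperoxidase) are transcribed at the promyelocyte stage, secondary granule proteins (lactoferrin, cathelicidin, lipocalin 2) at the myelocyte and metamyelocyte stages, and gelatinase in later band cells. Circulating neutrophils therefore carry much granule protein whose mRNA has already been shut off, and mRNA levels measured here say nothing about protein. The assignment of classes is not absolute: collagenase (Mmp8) is often counted with the secondary granules of human neutrophils, and Lcn2 is also made by airway and alveolar epithelium and by macrophages.

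The genes lie on 5 chromosomes (GRCm38, GENCODE M21). Prtn3 (chr10:79874476-79883174) and Elane (chr10:79886247-79888215) are neighbours on the plus strand with 3.07 kb between them. Camp (chr9:109847379-109849617, minus strand), Ngp (chr9:110419747-110423012) and Ltf (chr9:111019271-111042767) lie in 1 region of chromosome 9, with 570 kb from Camp to Ngp and 596 kb from Ngp to Ltf. Mmp8 (chr9:7558456-7568485) is on the same chromosome, 102.0 Mb from Camp. The others were Mpo (chr11:87793581-87804413), Ctsg (chr14:56099881-56102574, minus strand), Lcn2 (chr2:32384633-32388252, minus strand) and Mmp9 (chr2:164940780-164955850).

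Promoter sequences are shown for members of each class because the classes differ in when they are transcribed, and because PU.1 and C/EBP factors are known regulators of myeloid genes. The bases come from RefSeq (GRCm38.p6) and were matched by symbol for 9 of the 10 genes, all but Mmp9. The 250 bases before each start site were searched on both strands for the PU.1 core GAGGAA, the C/EBP core TTGCNNAA and the AP-1 core TGANTCA, and none of these letters overlapped another match. Among 32851 promoters of the same length, 23.3% held the PU.1 letters, 9.56% the C/EBP letters and 6.75% the AP-1 letters. The sequences are printed 5′ to 3′ on the strand of the gene, with the matches in capitals. Each stretch stops at the GENCODE gene start or, for Mmp8, at the RefSeq start site upstream of it: Elane (chr10:79886062-79886246) and Ctsg (chr14:56102575-56102824) for the primary class, Ltf (chr9:111019042-111019270) and Ngp (chr9:110419558-110419746) for the secondary class, and Mmp8 (chr9:7558179-7558428) for the tertiary class.
Elane: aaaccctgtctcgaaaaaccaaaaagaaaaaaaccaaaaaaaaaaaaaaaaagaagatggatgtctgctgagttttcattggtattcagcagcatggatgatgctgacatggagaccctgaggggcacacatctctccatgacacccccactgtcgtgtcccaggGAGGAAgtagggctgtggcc
Ctsg: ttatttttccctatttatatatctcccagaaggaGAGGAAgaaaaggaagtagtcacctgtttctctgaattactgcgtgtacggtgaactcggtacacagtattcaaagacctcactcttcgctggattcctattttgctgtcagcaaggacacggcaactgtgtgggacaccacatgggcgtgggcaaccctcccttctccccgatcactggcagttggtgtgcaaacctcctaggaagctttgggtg
Ltf: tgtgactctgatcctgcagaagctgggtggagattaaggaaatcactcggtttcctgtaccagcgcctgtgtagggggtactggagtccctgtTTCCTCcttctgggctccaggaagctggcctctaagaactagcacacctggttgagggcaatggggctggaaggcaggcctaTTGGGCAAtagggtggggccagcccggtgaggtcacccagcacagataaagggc
Ngp: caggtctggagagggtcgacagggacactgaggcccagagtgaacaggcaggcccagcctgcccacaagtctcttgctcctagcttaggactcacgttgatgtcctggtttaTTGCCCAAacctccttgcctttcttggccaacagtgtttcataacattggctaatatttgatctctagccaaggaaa
Mmp8: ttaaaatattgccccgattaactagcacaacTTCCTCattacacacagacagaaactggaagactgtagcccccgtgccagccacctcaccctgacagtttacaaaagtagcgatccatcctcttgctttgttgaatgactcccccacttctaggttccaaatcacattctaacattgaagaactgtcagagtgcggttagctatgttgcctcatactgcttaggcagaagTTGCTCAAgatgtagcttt

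The PU.1 letters stood in the searched window of Elane, Prtn3, Ctsg, Ltf, Lcn2 and Mmp8 once each and of Mpo at 2 places. The C/EBP letters stood in Ltf, Lcn2 and Mmp8 once each and in Ngp at 2 places, 1 of them (TTGGGCAA) inside the GENCODE gene and not printed. Camp held no match of either kind, no member held the AP-1 letters, and none of the 4 primary genes held the C/EBP letters in this window. The windows were set by the RefSeq start site, and all 250 bases of the Prtn3 and Lcn2 windows, with their matches, lay inside the GENCODE gene. Of the window of Mpo 203 bases lay inside it, and of that of Camp 161. A match of letters is a description of the sequence and not a binding site.

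Markers of lung were high in all libraries: Sftpc (surfactant protein C) ranged from 9684 to 12500 FPKM and Scgb1a1 (club cell secretoglobin) from 22060 to 39010 FPKM. VILI 6 h replicate 1 stood apart from the other 8 libraries. Its sum over 5 erythroid markers was 489 FPKM against 3225 to 5419, and its sum over 7 airway secretory markers was 41380 FPKM against 23930 to 32950. Results in VILI 6 h are therefore given with and without it where it mattered. Sums over the whole table ran from 366360 to 388459 FPKM per library. FPKM alone do not give the number of fragments behind a value, which was not estimated, and the spread of the 3 mice is the only measure of error used. Because whole lung was sequenced, more cells of a type and more RNA per cell cannot be told apart.

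The neutrophil content of the samples was read from 7 marker genes outside the granule set (S100a8, S100a9, Csf3r, Cxcr2, Retnlg, Ly6g and Stfa2l1). Their sum was 46.6, 52.9 and 54.0 FPKM in control, 549, 799 and 973 FPKM in VILI 0 h and 465, 943 and 1874 FPKM in VILI 6 h, each set in rising order. At an unadjusted P under 0.05 (limma on log2(FPKM + 0.1), the threshold of the study's methods), 7 of 7 were higher in VILI 0 h vs control and 7 of 7 in VILI 6 h vs control, 6 and 7 of them also at an adjusted p under 0.05 (7 and 3 without VILI 6 h replicate 3). Over all genes tested, 6.81% and 8.17% were higher in these comparisons. Ly6g read 0, 0.053 and 0 FPKM in control, so it passed the filter through the ventilated groups and the size of its change depends on the added 0.1. No marker passed either threshold between the 2 ventilated groups, with a median log2 fold change of 0.23. With VILI 6 h replicate 1 left out, 3 of 7 were higher in VILI 6 h at the unadjusted threshold, with a median of 0.54, and without VILI 6 h replicate 3 none was and the median was −0.19. The part of neutrophil content in the results that follow was not tested.

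The order of the members by mean level was led by Lcn2 in all 3 groups, with 64.8 ± 13.5 FPKM in control, 114 ± 25.4 in VILI 0 h and 405 ± 412.5 in VILI 6 h (mean ± SD, n = 3). In control it was followed by Ltf, Mmp9 and Mmp8, the last of which overlapped Ngp, and then came Prtn3 and Camp, whose ranges overlapped. In VILI 0 h Mmp8 moved to the second place at 28.8 ± 17.0 FPKM (SD, n = 3), and its range overlapped that of Ltf, which in turn overlapped Mmp9. In VILI 6 h the second place was held by Ngp at 47.9 ± 62.1 FPKM (SD, n = 3), and from Ngp down to Prtn3 each range overlapped the next. Elane, Mpo and Ctsg, many of whose values are listed at 0, had lower means than the others in each group. In control, however, their ranges all overlapped that of Camp, which also starts at 0, and in VILI 6 h that of Elane did. These 3 genes are not ordered among themselves.

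**Figure D1:**
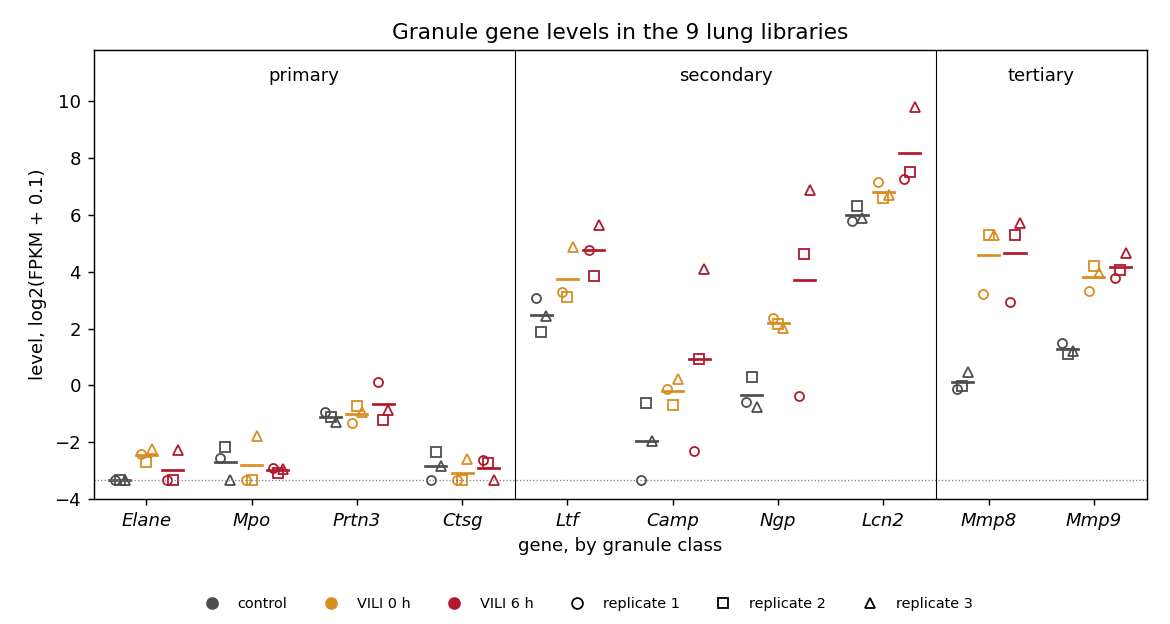
Level of the 10 granule genes in each of the 9 lung libraries, as log2(FPKM + 0.1), with genes on the x axis by granule class. Colours are the groups as named in the text, symbols the replicates, short bars the mean of the 3 log values and the dotted line the position of a listed 0. No primary gene exceeded 0.986 FPKM in a library, while Mmp8 and Mmp9 of all 6 ventilated mice lay above the controls.

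Of the primary granule genes, none was called different in any comparison, and 3 of 4 were too low to be tested. Elane (neutrophil elastase) stood at 0 FPKM in each of the 3 control libraries, at 0.0865, 0.0549 and 0.112 FPKM in VILI 0 h replicates 1, 2 and 3, and at 0, 0 and 0.110 FPKM in VILI 6 h. The VILI 0 h libraries thus all had a value where the controls are listed at 0, and 2 of 3 VILI 6 h libraries did not. Mpo (myeloperoxidase, which makes hypochlorous acid) read 0.0726, 0.122 and 0 FPKM in control, 0, 0 and 0.190 FPKM in VILI 0 h and 0.0324, 0.0170 and 0.0317 FPKM in VILI 6 h. Its groups overlapped in every comparison. Ctsg (cathepsin G, a serine protease) read 0, 0.0998 and 0.0407 FPKM in control, 0, 0 and 0.0684 FPKM in VILI 0 h and 0.0612, 0.0494 and 0 FPKM in VILI 6 h, again with overlap throughout. An exact 0 in such a table can be an estimate that failed, so these genes are given library by library with no mean ± SD. The exact permutation test on FPKM gave two-sided p-values from 0.1, the smallest that 3 against 3 libraries allow, for Elane in VILI 0 h vs control to 1.0 for Mpo in VILI 0 h vs control.

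Prtn3 (proteinase 3) was the only primary gene that could be tested. It read 0.425, 0.364 and 0.310 FPKM in control, 0.305, 0.506 and 0.419 FPKM in VILI 0 h and 0.986, 0.328 and 0.455 FPKM in VILI 6 h. The groups overlapped, and the highest value was that of VILI 6 h replicate 1. Prtn3 had a log2 fold change of 0.12 (SE 0.37, 95% interval −0.72 to 0.95) in VILI 0 h vs control with an adjusted p of 0.909, and 0.46 (−0.38 to 1.29) in VILI 6 h vs control with an adjusted p of 0.496. Without VILI 6 h replicate 1 the latter was 0.07. Summed over the 4 primary genes, the level ranged from 0.351 to 0.586 FPKM in control, from 0.392 to 0.789 FPKM in VILI 0 h and from 0.394 to 1.08 FPKM in VILI 6 h, and the 3 ranges overlapped.

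Mast cells and basophils are another known source of proteases of this family, and 7 of their markers were read beside the primary genes. Their sum was 1.37 to 2.25 FPKM in control, 1.99 to 3.05 FPKM in VILI 0 h and 0.926 to 1.97 FPKM in VILI 6 h. Of the 6 tested, none was higher or lower against control (1 lower in VILI 6 h without VILI 6 h replicate 1), and 1 was lower at VILI 6 h than at VILI 0 h (Tpsb2, log2 fold change −1.48, adjusted p = 0.393, named because it was the marker that passed the unadjusted threshold, which it missed without VILI 6 h replicate 3).

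Among the secondary granule genes, Ltf (lactoferrin, which binds iron) was higher in both ventilated groups at an unadjusted P under 0.05. It read 8.41, 3.57 and 5.33 FPKM in control, 9.61, 8.49 and 29.4 FPKM in VILI 0 h and 27.2, 14.3 and 50.1 FPKM in VILI 6 h. All ventilated libraries were above all controls, though the gap to the lowest VILI 0 h library was small, and the 2 ventilated groups overlapped. The log2 fold change was 1.29 (SE 0.56, 95% interval 0.03 to 2.54, adjusted p = 0.297) in VILI 0 h vs control and 2.29 (1.04 to 3.54, adjusted p = 0.0908) in VILI 6 h vs control. Without VILI 0 h replicate 3, its highest library at that time, the first fell to 0.72 (adjusted p = 0.609) and missed the unadjusted threshold, as it did without control replicate 2 or 3 or VILI 6 h replicate 1. The VILI 6 h value passed the adjusted threshold without VILI 6 h replicate 1 (2.28, adjusted p = 0.0349). Of its 7 transcripts in the table, 1 held 97.7% of the FPKM and 2 were listed at 0 in every library.

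Ngp (neutrophilic granule protein, a relative of the cathelicidins) varied widely within VILI 6 h. It read 0.568, 1.14 and 0.494 FPKM in control, 5.14, 4.40 and 3.96 FPKM in VILI 0 h and 0.677, 24.7 and 118 FPKM in VILI 6 h. In VILI 0 h the 3 libraries were close to each other and above all controls. At the later time replicate 1 lay among the controls, replicate 2 lay above every VILI 0 h library and replicate 3 lay far above both. The log2 fold change was 2.53 (SE 1.42, adjusted p = 0.418) in VILI 0 h vs control and 4.06 (SE 1.42, adjusted p = 0.170) in VILI 6 h vs control. The shared estimate of spread takes in the VILI 6 h libraries. With only the 6 libraries compared, the VILI 0 h value had an adjusted p of 0.00574, in a fit where 1597 of 19378 genes passed the adjusted threshold in place of 55.

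Camp (the cathelicidin precursor, source of an antimicrobial peptide) followed Ngp library by library in VILI 6 h. Control libraries read 0, 0.550 and 0.161 FPKM, against 0.810, 0.521 and 1.08 FPKM in VILI 0 h and 0.105, 1.82 and 17.1 FPKM in VILI 6 h. In VILI 0 h 2 libraries were above all controls and 1 was just below the highest control, and in VILI 6 h replicate 1 was again at the level of the controls. Its log2 fold change was 1.77 (SE 1.33, adjusted p = 0.553) in VILI 0 h vs control and 2.88 (SE 1.33, adjusted p = 0.259) in VILI 6 h vs control. Camp was thus not called at the threshold in either comparison in the main fit. It passed the unadjusted threshold in VILI 0 h vs control with only the 6 libraries compared (adjusted p = 0.141). In VILI 6 h vs control it did so with the replicate number as a block (adjusted p = 0.251). For so low a gene the size depends on the pseudocount, and VILI 0 h vs control gave 0.56 with a pseudocount of 1 and 2.98 with 0.01. The same comparison gave 1.1 without control replicate 1 and 2.4 without control replicate 2.

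The VILI 6 h values of Ngp and Camp rested on single libraries. Without VILI 6 h replicate 1, Ngp had a log2 fold change of 6.10 vs control (adjusted p = 5.37e-04) and Camp one of 4.48 (adjusted p = 0.0132), in a fit where 4526 of 19395 genes passed the adjusted threshold in place of 136. Without VILI 6 h replicate 3, Ngp had 2.48 (adjusted p = 0.377) and Camp 1.29 (adjusted p = 0.585), and neither passed the unadjusted threshold. Ngp also missed it without VILI 6 h replicate 2 (3.60, adjusted p = 0.364), and Camp passed it without control replicate 2 (3.55, adjusted p = 0.367). In VILI 0 h vs control Ngp passed the unadjusted threshold when VILI 6 h replicate 1 (adjusted p = 0.0236) or replicate 3 (adjusted p = 0.214) was left out. The library with the low values is the one whose erythroid markers were low and whose neutrophil marker sum (465 FPKM) was the lowest of the ventilated libraries. The library with the high values had the highest neutrophil marker sum (1874 FPKM). The part of these differences in the result was not tested.

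Lcn2 (lipocalin 2, which binds bacterial siderophores) was the most abundant member in every library. It read 55.4, 80.2 and 58.8 FPKM in control, 143, 95.4 and 104 FPKM in VILI 0 h and 152, 182 and 881 FPKM in VILI 6 h. Each VILI 0 h library lay above the controls and each VILI 6 h library above VILI 0 h, so that Lcn2 was the only member whose 3 groups were all separate in this order. The log2 fold change was 0.81 (SE 0.55, adjusted p = 0.511) in VILI 0 h vs control and 2.18 (SE 0.55, 95% interval 0.94 to 3.42, adjusted p = 0.0978) in VILI 6 h vs control. In the fit of only the 6 libraries compared, with its 1597 calls over all genes, the VILI 0 h value had an adjusted p of 0.0445. Without VILI 6 h replicate 3 the VILI 6 h value was 1.38 (adjusted p = 0.0516) and the VILI 0 h value passed the unadjusted threshold (adjusted p = 0.0706). Leaving out VILI 6 h replicate 1 gave 2.64 (adjusted p = 0.0111) in VILI 6 h vs control.

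Lcn2 did not share the low value of VILI 6 h replicate 1 that marked Ngp and Camp: in that library Ngp and Camp were within or near the control range, while Lcn2 was above every VILI 0 h library. Ltf did not share it either, at 27.2 FPKM there against 3.57 to 8.41 FPKM in control. Markers of the other cell types known to make Lcn2 were read beside it. Over all genes tested, 6.81% were higher and 9.35% lower in VILI 0 h vs control at an unadjusted P under 0.05. In VILI 6 h vs control these shares were 8.17% and 12.2%, so a single call in a list this short is not read as a result about the cells. Of 7 airway secretory markers, 1 was higher in VILI 0 h vs control and 2 in VILI 6 h vs control at an unadjusted P under 0.05. With VILI 6 h replicate 1 left out, VILI 6 h vs control had 3 higher and 1 lower, and 4 passed the adjusted threshold in place of 0, while VILI 0 h vs control had 2 higher, and 0 with replicate 3 left out. The airway marker sums were 24700 to 27440, 29790 to 32950 and 23930 to 41380 FPKM in the 3 groups. Of 7 alveolar macrophage markers, 4 were higher in VILI 0 h vs control and 1 was lower in VILI 6 h vs control (2 higher and 1 lower without VILI 6 h replicate 1, 0 of either without replicate 3), with sums of 288 to 366, 430 to 497 and 299 to 683 FPKM. Much of this sum is Chil3 (528 of 683 FPKM in VILI 6 h replicate 1), which is also in the list of further secondary granule genes. Of 6 alveolar type 2 markers, 1 was higher in VILI 0 h vs control and 1 lower in VILI 6 h vs control (2 lower without VILI 6 h replicate 1, 0 without replicate 3). Between VILI 6 h and VILI 0 h, 3 alveolar macrophage markers were lower (4 without VILI 6 h replicate 1, 5 without replicate 3). There 1 airway marker was higher (1 higher and 1 lower without replicate 1, 0 without replicate 3). No alveolar type 2 marker passed (2 lower without replicate 1), where 5.06% of all genes were higher and 4.94% lower. No marker of these lists was at 0, and their part in the level of Lcn2 was not tested.

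Both tertiary granule genes were higher in both ventilated groups. Mmp8 (neutrophil collagenase) read 0.807, 0.894 and 1.29 FPKM in control, 9.27, 38.7 and 38.6 FPKM in VILI 0 h and 7.56, 39.2 and 53.0 FPKM in VILI 6 h. All ventilated libraries were several times above the highest control, and in each ventilated group replicate 1 was the low one. The mean was 28.9 times that of control in VILI 0 h and 33.3 times in VILI 6 h. The log2 fold change was 4.48 (SE 0.74, 95% interval 2.83 to 6.14, adjusted p = 0.0514) and 4.55 (2.89 to 6.20, adjusted p = 0.0311), so that Mmp8 passed the adjusted threshold in VILI 6 h vs control and missed it in VILI 0 h vs control. The VILI 6 h value lost the adjusted threshold without VILI 6 h replicate 2 (4.22, adjusted p = 0.104), without VILI 6 h replicate 3 (4.01, adjusted p = 0.0818) or without any 1 control, and was 5.40 without VILI 6 h replicate 1. The VILI 0 h value was 5.17 and passed the adjusted threshold without VILI 0 h replicate 1 (adjusted p = 0.0423), as it did without VILI 6 h replicate 1 or 3.

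Mmp9 (gelatinase B, which cuts denatured collagen and type IV collagen) had the smallest standard error of the 7 tested members. It read 2.73, 2.06 and 2.21 FPKM in control, 9.98, 18.5 and 15.3 FPKM in VILI 0 h and 13.8, 16.4 and 24.9 FPKM in VILI 6 h. Every ventilated library was above every control, and the ventilated groups overlapped. Mmp9 had log2 fold changes of 2.56 (SE 0.27, 95% interval 1.96 to 3.16, adjusted p = 0.0204) in VILI 0 h vs control and 2.89 (2.29 to 3.48, adjusted p = 0.00959) in VILI 6 h vs control. Leaving out 1 library at a time kept the log2 fold change at or above 2.37 and past the unadjusted threshold in both comparisons.

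**Figure D2:**
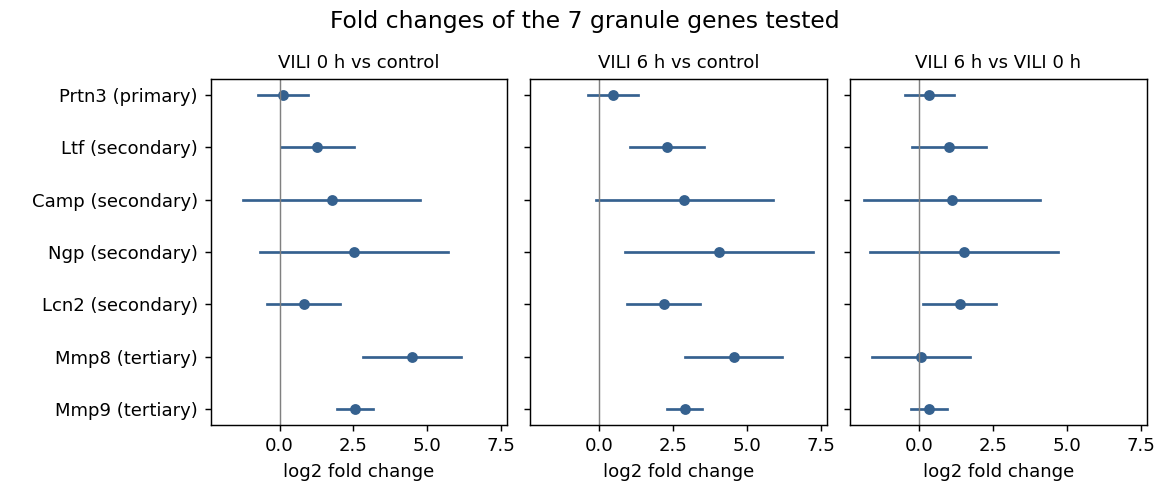
Log2 fold changes of the 7 members tested, from limma on log2(FPKM + 0.1), with 95% intervals as horizontal lines, for VILI 0 h vs control, VILI 6 h vs control and VILI 6 h vs VILI 0 h. The intervals of Mmp8 and Mmp9 lay above 0 against control at both times and spanned 0 between the times, and those of Ngp and Camp were the widest.

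By class, VILI 0 h vs control had 0 of 1 tested primary genes, 1 of 4 secondary genes and 2 of 2 tertiary genes higher at an unadjusted P under 0.05, and none lower. These were Ltf, Mmp8 and Mmp9, 3 of the 7 tested members, where 6.81% of the 19378 genes tested were higher and 9.35% lower. At an adjusted p under 0.05, 1 member (Mmp9) was called, where 0.284% of all genes were, and none without 1 of the controls or without VILI 0 h replicate 2 or 3. The median log2 fold change was 1.53 over the secondary genes and 3.52 over the tertiary genes, with −0.07 over all genes tested. Genes called higher were 42.1% of all genes called in VILI 0 h vs control and 40.1% in VILI 6 h vs control, and 61.2% and 58.1% after each library was centred on its median, with the same members called. That centring raised each log2 fold change by 0.115 in VILI 0 h vs control and by 0.127 in VILI 6 h vs control. Of the tested members, Ltf, Ngp, Lcn2, Mmp8 and Mmp9 had all VILI 0 h libraries above all control libraries, which held for 12.0% of all genes tested.

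In VILI 6 h vs control, 3 of 4 secondary genes and 2 of 2 tertiary genes were higher at an unadjusted P under 0.05, and none was lower. These were Ltf, Ngp, Lcn2, Mmp8 and Mmp9, 5 of the 7 tested members, where 8.17% of all genes were higher and 12.2% lower. At an adjusted p under 0.05, 2 members (Mmp8 and Mmp9) were called, where 0.702% of all genes were, only Mmp9 without VILI 6 h replicate 2 or 3, and none without 1 of the controls. The median log2 fold change was 2.58 over the secondary genes and 3.72 over the tertiary genes, with −0.09 over all genes tested. The groups did not overlap for Ltf, Lcn2, Mmp8 and Mmp9, which held in that direction for 9.64% of all genes. Without VILI 6 h replicate 1, 6 members passed the adjusted threshold in place of 2, as did a larger share of all genes, with 4526 of 19395 called. Both comparisons used the same control libraries and are not independent of each other.

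**Figure D3:**
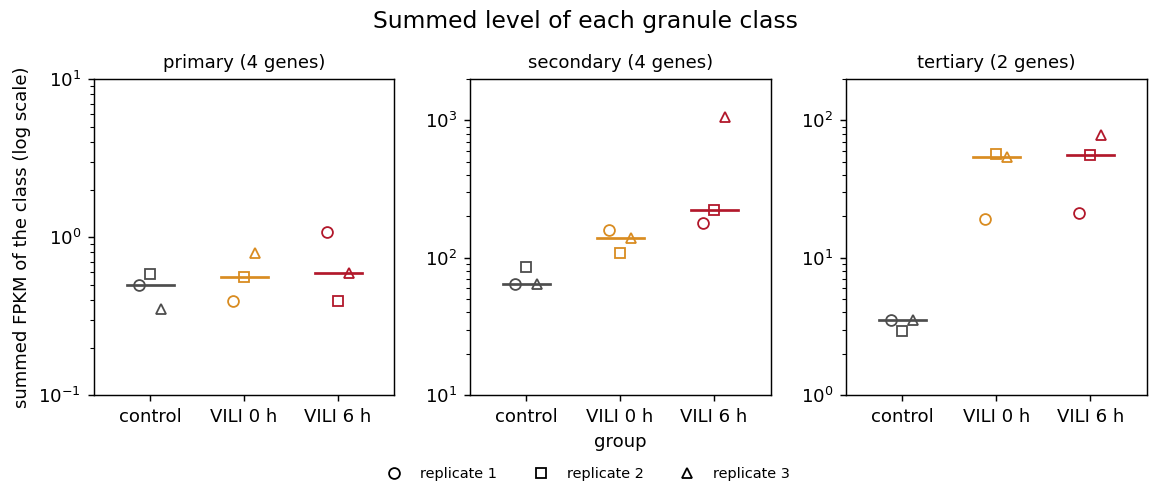
Summed FPKM of the members of each granule class in each library, on a log scale that differs between the panels, with the group on the x axis, symbols for replicates and bars for the median of 3. The primary sums of the 3 groups overlapped between 0.351 and 1.08 FPKM, the secondary sums were separate between groups, and the tertiary sums of the ventilated groups, from 19.3 to 77.9 FPKM, lay above the 2.95 to 3.53 FPKM of control. Without Lcn2 the secondary sums of the ventilated groups overlapped, at 13.4 to 34.4 FPKM in VILI 0 h and 28.0 to 186 FPKM in VILI 6 h.

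The ventilated groups were then set against each other. Between VILI 6 h and VILI 0 h, 1 of the 7 tested members passed an unadjusted P under 0.05, where 5.06% of all genes were higher and 4.94% lower. This was Lcn2, at a log2 fold change of 1.37 (SE 0.55, 95% interval 0.12 to 2.61, adjusted p = 0.458). The unadjusted threshold was missed without VILI 0 h replicate 2 or without VILI 0 h replicate 3. It was the only member whose VILI 6 h libraries were all above VILI 0 h, which held for 6.25% of all genes. By limma no gene of the whole table passed an adjusted p under 0.05 here (0.0%), with 981 genes higher and 957 lower at the unadjusted threshold.

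The other secondary genes had wide intervals in that comparison, at 1.0 (95% interval −0.25 to 2.25) for Ltf, 1.11 (−1.88 to 4.11) for Camp and 1.53 (−1.66 to 4.71) for Ngp. Ltf passed the unadjusted threshold without VILI 0 h replicate 3 (1.57, adjusted p = 0.5445), without VILI 6 h replicate 2 (1.46, adjusted p = 0.466) and with the replicate number as a block (adjusted p = 0.552). Leaving out VILI 6 h replicate 1 took Ngp to 3.57 (adjusted p = 0.0244, 1 of 362 genes called in that fit) and Camp to 2.72 (adjusted p = 0.147), and leaving out VILI 6 h replicate 3 took them to −0.06 and −0.48. The direction of Ngp and Camp between the times thus depended on which library was left out. The tertiary genes gave 0.06 (−1.59 to 1.71) for Mmp8, which was below 0 without VILI 0 h replicate 1 or VILI 6 h replicate 2 or 3, and 0.33 (−0.27 to 0.93) for Mmp9. The interval of Mmp9 reached no higher than 0.93, while that of Mmp8 reached 1.71.

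The share of each class in the summed level of the 10 genes was also read within single libraries. Tertiary genes made up 3.31% to 5.16% of the sum in control, 10.8%, 34.3% and 27.9% in VILI 0 h and 10.6%, 19.9% and 6.80% in VILI 6 h replicates 1 to 3. Secondary genes made up 94.1% to 96.0% in control, 65.3% to 89.0% in VILI 0 h and 79.9% to 93.2% in VILI 6 h, most of it Lcn2. Without Lcn2, the secondary genes summed to 5.26 to 8.98 FPKM in control, 13.4 to 34.4 FPKM in VILI 0 h and 28.0 to 186 FPKM in VILI 6 h. The ventilated groups thus overlapped once Lcn2 was left out. The primary genes never exceeded 0.728% of the sum.

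Ratios to Mmp8 within a library set the members against each other without the level of the library. Lcn2 was 45.5 to 89.8 times Mmp8 in control, 2.47 to 15.4 times in VILI 0 h and 4.64 to 20.1 times in VILI 6 h, so control was separate from both. Ltf was 4.0 to 10.4 times Mmp8 in control and 0.220 to 1.04 times in VILI 0 h, and its VILI 6 h ratios of 3.60, 0.364 and 0.947 lay below those of control. Ngp was 0.382 to 1.28 times Mmp8 in control, 0.103 to 0.554 times in VILI 0 h and 0.0896, 0.630 and 2.23 times in VILI 6 h replicates 1, 2 and 3. The highest and the lowest Ngp ratio of all 9 libraries were therefore both found in VILI 6 h. Mmp9 was 1.71 to 3.38 times Mmp8 in control and 0.396 to 1.82 times in the ventilated libraries. These ratios were not tested.

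**Figure D4:**
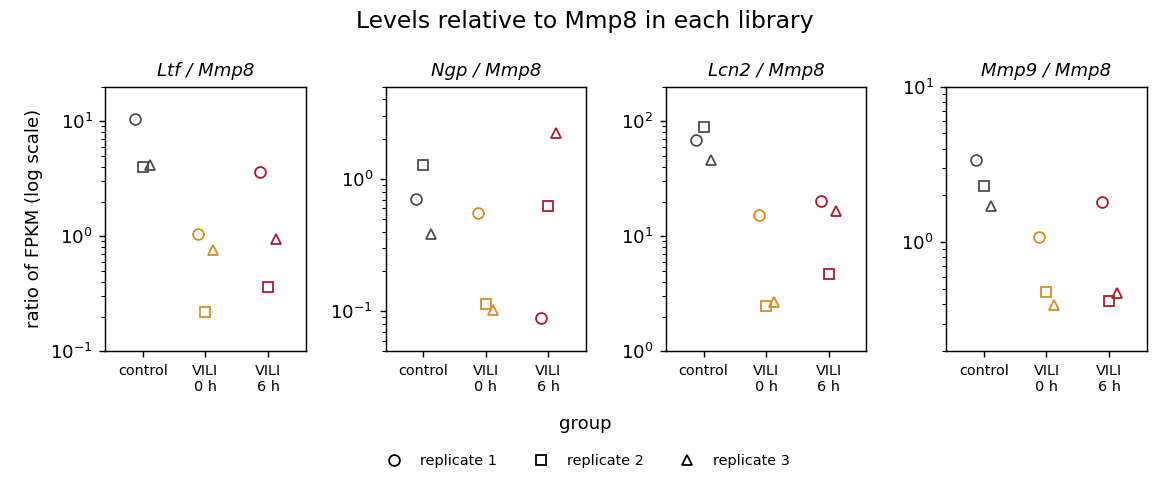
Ratio of the FPKM of Ltf, Ngp, Lcn2 and Mmp9 to that of Mmp8 in each library, on log scales that differ between the panels, with the group on the x axis and symbols for replicates. The Ltf and Lcn2 ratios of control lay above those of VILI 0 h, and the Ngp ratios of VILI 6 h ran from 0.0896 to 2.23.

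Other genes whose products sit in the same granules were counted from lists chosen by known location, with earlier results of these data known. Of 7 further primary granule genes, 5 could be tested, and none passed an unadjusted P under 0.05 in VILI 0 h vs control and 1 was higher in VILI 6 h vs control (Cd63, a granule membrane tetraspanin, log2 fold change 0.28, adjusted p = 0.235, named because it was the gene that passed). The VILI 6 h count was 2 higher and 1 lower without VILI 6 h replicate 1 (2 at an adjusted p under 0.05) and 0 without VILI 6 h replicate 3. For VILI 0 h vs control 1 was higher when either of these libraries was left out, also at an adjusted p under 0.05 without replicate 1. Bpi, a bactericidal protein of primary granules, was listed at 0 in 8 of 9 libraries. At VILI 6 h vs control the highest value was that of Srgn (serglycin, which packs granule proteases) at 0.60 (adjusted p = 0.380) and the lowest that of Lyz2 (lysozyme, also made by macrophages and alveolar epithelium) at −0.33 (adjusted p = 0.4285), neither past the unadjusted threshold. The median of the list was −0.16 and 0.17 in the comparisons with control. The counts of this list and of those below stand beside the shares over all genes tested. These were 6.81% higher and 9.35% lower in VILI 0 h vs control, and 8.17% and 12.2% in VILI 6 h vs control.

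Of 8 further secondary granule genes, 2 were higher in VILI 0 h vs control and 6 in VILI 6 h vs control, and none was lower. The count in VILI 0 h vs control was 5 without VILI 6 h replicate 1 and 4 without VILI 6 h replicate 3. Cd177, a surface receptor stored in these granules, read 1.30, 1.44 and 1.09 FPKM in control, 1.45, 5.09 and 2.29 FPKM in VILI 0 h and 8.58, 7.12 and 20.5 FPKM in VILI 6 h, and all VILI 6 h libraries were above all others. Its log2 fold change was 2.99 (adjusted p = 0.0310) in VILI 6 h vs control and 2.02 (adjusted p = 0.243) against VILI 0 h. Olfm4 (olfactomedin 4, carried by a subset of neutrophils) had the highest value of the list at 3.25 (adjusted p = 0.0754), with 2 of 3 controls listed at 0. Cyba, a subunit of the NADPH oxidase, had the lowest at 0.44 (adjusted p = 0.159), which passed the unadjusted threshold. Between the ventilated groups 3 of the 8 were higher at VILI 6 h.

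All 5 further tertiary granule genes were higher in VILI 6 h vs control and 3 of them in VILI 0 h vs control. Slc11a1 (a metal transporter, also in macrophages) passed the adjusted threshold in VILI 6 h vs control at 1.34 (adjusted p = 0.0311). The largest value was that of Mmp25 (a membrane-bound protease of neutrophils) at 1.83 (adjusted p = 0.116), and the lowest that of Itgb2 (the common chain of leukocyte integrins) at 0.68 (adjusted p = 0.0901). Of 6 genes of secretory vesicles, 3 were higher in VILI 0 h vs control, while in VILI 6 h vs control 5 were higher and 1 was lower. The lower one was Mme (neprilysin, which alveolar epithelium also makes) at −0.52 (adjusted p = 0.220), a call lost without VILI 6 h replicate 3, and the highest was Alpl (alkaline phosphatase) at 1.59 (adjusted p = 0.130). Fcgr3, an Fc receptor, passed the adjusted threshold at 1.46 (adjusted p = 0.0257).

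The genes of mature neutrophils outside the granules rose together at both times: 8 of 8 were higher at an unadjusted P under 0.05, and 6 and 7 of them at an adjusted p under 0.05 (8 and 3 without VILI 6 h replicate 3). All but Il1r2 are the 7 neutrophil markers counted above, so these counts are not a further reading. S100a8 and S100a9 (the chains of calprotectin) had log2 fold changes of 4.08 and 3.84 in VILI 0 h vs control and 4.30 and 4.32 in VILI 6 h vs control. Cxcr2, the chemokine receptor, had 3.57 and 3.66, Retnlg 4.95 and 4.60, Stfa2l1 3.06 and 3.74 and Ly6g 3.48 and 4.08. Ly6g read 0, 0.053 and 0 FPKM in control, so the size of its values depends on the pseudocount. The highest value in VILI 6 h vs control was that of Il1r2 (a decoy receptor for interleukin 1) at 5.58 (adjusted p = 0.0587) and the lowest that of Csf3r (the G-CSF receptor) at 2.07. None of the 8 passed between the ventilated groups, where the median was 0.16. When VILI 6 h replicate 1 was left out, 4 of 8 were higher at VILI 6 h and the median was 0.60, and without VILI 6 h replicate 3 none passed and the median was −0.21. Stfa2l1 belongs to a family of near-identical stefins, so its reads may be shared with other members.

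Summed over these lists and the regulator and inhibitor lists that follow, 7 in all with 47 tested entries (Serpinb1a is in 2 of them), VILI 6 h vs VILI 0 h gave 10 higher at an unadjusted P under 0.05. The number was 20 without VILI 6 h replicate 1 and 6 without VILI 6 h replicate 3. Over all genes the higher calls were 981 of 19378, and went to 1658 of 19395 and 1030 of 19345 without these libraries. In the comparison of VILI 6 h with control the lists gave 29, and 33 and 26 without these libraries, beside 1583, 2497 and 1285 over all genes. Cd177, Slc11a1, Fcgr3, Spi1 and Timp1, the genes outside the mature neutrophil list that passed the adjusted threshold in VILI 6 h vs control, all lost it without VILI 6 h replicate 3. Leaving out VILI 6 h replicate 1 raised the adjusted calls from 1 to 4 of 8 further secondary genes, from 1 to 5 of 5 further tertiary genes, from 1 to 4 of 6 secretory vesicle genes and from 1 to 4 of 8 inhibitors, in the fit with 4526 such calls over all genes.

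Genes that act on granule gene transcription or mark immature and dividing cells were read beside the primary genes. Of 9, Cebpe (the factor for secondary granule genes) and Fcnb (a ficolin of immature neutrophils) lay under the filter, at no more than 0.245 and 0.135 FPKM. Of the 7 tested, Spi1 (which encodes PU.1, also in macrophages) was higher in VILI 0 h vs control at 0.74 (adjusted p = 0.0661) and in VILI 6 h vs control at 1.06 (adjusted p = 0.0217). Myb, a factor of early progenitors, was lower in VILI 6 h vs control at −0.64 (adjusted p = 0.236). The proliferation genes Mki67 and Top2a, named after their values were seen, had values of 0.37 and 0.28 in VILI 6 h vs control and did not pass (adjusted p = 0.606 and adjusted p = 0.687). In that comparison the list had 1 higher and 1 lower, 3 higher and 1 lower when VILI 6 h replicate 1 was left out, and 1 higher and 0 lower when VILI 6 h replicate 3 was, so that Myb lost its call.

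Inhibitors of the granule proteases were also counted. Of 10 genes, 8 could be tested. None was higher in VILI 0 h vs control and 1 was lower (A2m, a general protease inhibitor, at −1.42, adjusted p = 0.194), while 3 were higher in VILI 6 h vs control. The count of higher genes in VILI 0 h vs control was 2 without VILI 6 h replicate 1 and 1 without VILI 6 h replicate 3. Timp1, which inhibits metalloproteases such as Mmp8 and Mmp9, read 3.08, 2.97 and 1.62 FPKM in control, 2.62, 4.37 and 3.21 FPKM in VILI 0 h and 8.90, 12.5 and 30.5 FPKM in VILI 6 h. Its VILI 6 h libraries were above all others, with a log2 fold change of 2.57 vs control (adjusted p = 0.0353) and 2.14 vs VILI 0 h (adjusted p = 0.173). Serpina3n (an inhibitor of serine proteases from a family of close copies) had the highest value by a narrow margin at 2.57 (adjusted p = 0.103), and A2m the lowest at −0.70 (adjusted p = 0.4112). In VILI 0 h vs control Timp1 had a log2 fold change of 0.42 (adjusted p = 0.6685), and the difference from Mmp8 or Mmp9 was not tested.

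Other cell types that could add to the members were read in the same way, where 6.81% of all genes were higher in VILI 0 h vs control and 8.17% in VILI 6 h vs control. Of 5 monocyte markers, none was higher in VILI 0 h vs control and 3 were higher in VILI 6 h vs control, with sums of 38.3 to 41.0, 30.6 to 115 and 81.9 to 108 FPKM in the 3 groups. Siglecf, which is also in the alveolar macrophage list, made up most of the eosinophil sum. Of the 3 eosinophil markers that could be tested, 2 were higher in VILI 0 h vs control and 1 in VILI 6 h vs control, with sums of 2.50 to 3.65, 5.80 to 7.33 and 4.05 to 4.32 FPKM, while Epx (eosinophil peroxidase) was listed at 0 in all 9 libraries. None of 5 platelet markers passed against control. Without VILI 6 h replicate 1, 4 of 5 were higher in VILI 6 h vs control, 3 of them at an adjusted p under 0.05. Platelet marker sums were 30.5 to 37.0, 33.4 to 43.3 and 28.3 to 59.3 FPKM. The part of these cells in the granule gene levels was not tested.

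Genes with a like pattern were looked up for each class among the 14108 genes with a mean of at least 1 FPKM, by the root mean square difference of centred log2(FPKM + 0.1) values over the 9 libraries. Nearest to the tertiary sum were Cxcr2 at 0.24, Gm43181 (a long noncoding RNA) at 0.31 and Clec4e (a C-type lectin of myeloid cells) at 0.32, where the class itself varied by 1.82. Gm43181 read 0.511 to 0.677 FPKM in control, 2.86 to 9.57 FPKM in VILI 0 h and 2.76 to 11.0 FPKM in VILI 6 h. Nearest to the secondary sum, which is mostly Lcn2, were Gm20186 at 0.30, Zc3h12a (an RNase that degrades cytokine mRNAs) at 0.33 and Steap4 (a metalloreductase) at 0.40, where the class varied by 1.17. Zc3h12a read 4.89 to 5.80 FPKM in control, 6.97 to 8.25 FPKM in VILI 0 h and 7.48, 11.5 and 51.2 FPKM in VILI 6 h. Nearest to the primary sum were Prr29 at 0.15, Cfap45 at 0.19 and Col13a1 at 0.20, where the class varied by 0.42. Cfap45 belongs to cilia and Col13a1 encodes a collagen.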

How the data were processed

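Lung RNA of 9 mice (3 control, 3 VILI 0 h, 3 VILI 6 h) was sequenced after rRNA depletion, and group membership came from the sample records. The authors deposited 1 FPKM value per transcript and library. They aligned reads with TopHat 2.0.9 and Bowtie2 2.0.6 (GRCm38, per the processing notes), used Scripture and Cufflinks for assembly and Cuffdiff 2.1.1 for the FPKM. The library kit and sequencer in the sample records are not those that the paper's methods name. The study lists reads per library, which were not used here. The deposited unit is FPKM, so no count test was run, and the number of mice limits the precision.

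FPKM of the 60108 transcripts was summed per gene ID (27203), and 23503 IDs were named by GENCODE M21. The 19378 genes with a mean of at least 0.1 FPKM entered a limma 3.58.1 fit under R 4.3.3, with trended eBayes variances, of log2(FPKM + 0.1), with group as the only factor and all 9 libraries in 1 fit. This pseudocount understates fold changes of low genes. Benjamini-Hochberg adjustment was over all genes tested. Genes were called at an unadjusted P under 0.05, as in the study, and at an adjusted p under 0.05. For each member an exact two-sided permutation test on FPKM was run as well, where 3 against 3 libraries cannot give less than 0.1. The procedure was tested on simulated data. Other tools were matplotlib 3.10.9, pandas 2.3.3, scipy 1.17.1 and numpy 2.4.6 under Python 3.11.15.

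The members and lists were chosen with earlier results of these data known. Named with values are the 10 members and, in each further list (primary, secondary and tertiary granule genes, secretory vesicles, mature neutrophils, granule gene transcription, protease inhibitors), the genes with the highest and lowest log2 fold change in VILI 6 h vs control and any with an adjusted p under 0.05. Exceptions are marked in the text. For each class the 3 genes of most similar pattern are named. Marker lists covered neutrophils, alveolar macrophages, monocytes, mast cells and basophils, eosinophils, airway secretory, alveolar type 2, erythroid and platelet cells, and lung. Alternatives were pseudocounts of 0.01 and 1, no filter, a mean of at least 1 FPKM, a replicate block, no trend, libraries centred on their median, only the 6 libraries compared, the most abundant transcript and each library left out. Counts over the further lists and marker lists without VILI 6 h replicate 1 or 3 were added after seeing the data.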

Additional observations from a re-analysis of the deposited data

Results flagged for a closer look

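Lcn2 was the 1 member whose responses to ventilation at the 2 times differed in the test of the difference itself, as its log2 fold change between VILI 6 h and VILI 0 h was 1.37, past an unadjusted P under 0.05. The adjusted p was 0.458, so the result fails the correction over all genes, and 5.06% of all genes were higher at the same unadjusted threshold. All 3 VILI 6 h libraries (152, 182 and 881 FPKM) lay above all 3 VILI 0 h libraries (143, 95.4 and 104 FPKM), by a narrow gap at the nearest pair. Over the alternatives that were run, the log2 fold change ranged from 0.56 without VILI 6 h replicate 3 to 1.83 without VILI 6 h replicate 1 and the adjusted p from 0.105 to 0.791. It lost the threshold with only the 6 libraries compared, without a trend and without VILI 0 h replicate 2 or 3.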

How the results depend on the processing

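Of 375 values of the members under the alternatives, 340 kept their direction and their side of an unadjusted P of 0.05, 14 passed it anew, 14 lost it and 7 changed sign. The sign changes were those of Prtn3 in VILI 0 h vs control (−0.017 without VILI 0 h replicate 2) and between VILI 6 h and VILI 0 h (−0.046 without VILI 6 h replicate 1), and, in the latter comparison, of Camp (−0.48) and Ngp (−0.057) without VILI 6 h replicate 3 and of Mmp8 (−0.62 without VILI 0 h replicate 1, −0.26 and −0.48 without VILI 6 h replicates 2 and 3). Over the fits that left out 1 library, these values ranged from −0.017 to 0.27, −0.046 to 0.63, −0.48 to 2.72, −0.057 to 3.57 and −0.62 to 0.92 in the same order. None of the 7 values that changed sign was called in either form.

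In VILI 0 h vs control the number of members at an unadjusted P under 0.05 was 3, and 6 with only the 6 libraries compared, a fit in which the higher calls over all genes went from 1319 to 1896 and the adjusted calls from 55 to 1597. It ranged from 2 to 5 over the fits that left out 1 library. The number at an adjusted p under 0.05 was 1, and 2 with a pseudocount of 0.01, 0 with no filter, 4 with only the 6 libraries compared and 0 to 3 with 1 library left out. In VILI 6 h vs control the adjusted number was 2. It was 1 with a pseudocount of 1, with no filter, with only the 6 libraries compared, without a trend and with the most abundant transcript, and 0 to 6 with 1 library left out. It was 0 without any 1 of the controls. Between the ventilated groups the unadjusted number was 1, and 0 with only the 6 libraries compared or without a trend. With 1 library left out it was 0 to 3, and the adjusted number was 0 to 1, the call being Ngp without VILI 6 h replicate 1. With no filter, Elane gave 0.87 in VILI 0 h vs control (adjusted p = 0.242), past the unadjusted threshold. Ltf in VILI 0 h vs control lost the unadjusted threshold in 8 alternatives. Over all genes, the adjusted calls of 55 and 136 became 1344 and 4526 without VILI 6 h replicate 1, and the cause was not tested.

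The replicate numbers did not pair the samples, since deviations of same-numbered libraries correlated from −0.221 to 0.0175. With the replicate block, adjusted calls among members were 2 in VILI 0 h vs control and 2 in VILI 6 h vs control, where those over all genes fell to 10 and 43, and 2 members passed the unadjusted threshold between the ventilated groups. The study lists reads per library, but fragment counts per gene were not estimated from them, so no limit was set for a listed 0 of Elane, Mpo or Ctsg.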
